A study of Mus musculus with 2 samples.

Results

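A set of 32 genes of DNA damage signalling and repair was followed through mammary luminal cells of normal and tumour-prone mice. The genes were taken by symbol from a list chosen with earlier results of these data known. Counts of members below therefore describe the list and are no independent support for it. All 32 were found among the 31053 genes of both count matrices. Luminal cells had been sorted by flow cytometry from mammary glands of FVB/NJ mice aged 3.5 months and profiled with a droplet-based 3′ kit that counts unique molecular identifiers (UMIs). The group WT came from mice of genotype Sox9-GFP, which carry a reporter of the transcription factor SOX9. The group C3-TAg came from mice of genotype Sox9-GFP;C3-TAg, which carry the same reporter and, in addition, a transgene in which the rat C3(1) promoter drives the SV40 T antigens in mammary and some other epithelia. The labels name no treatment, and the sources used here do not say how many mice were pooled for a library. Each group was 1 library, so no difference between groups has a replicate check, no p-value was computed, and every interval below covers counting error only.

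Double-strand breaks are sensed by the MRE11-RAD50-NBN complex and marked by phosphorylation of the histone variant H2AX. The kinases ATM and ATR relay the signal to CHK2 and CHK1. After resection of the broken ends, BRCA1, PALB2 and BRCA2 prepare the DNA for strand exchange with the sister chromatid, a route open mainly in S and G2 phase. The Fanconi anaemia proteins deal with crosslinks between the strands, and further enzymes remove uracil, mispaired bases or single-strand breaks. Many of these genes are transcribed in the cell cycle, through E2F factors that the Rb family holds in check. Large T antigen binds Rb family proteins and p53. This is background and not a result of these libraries.

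Kept cells were put into states by their UMI counts. A cell was called hormone-sensing with at least 5 UMIs of Areg, Pgr, Esr1 and Cited1 together per 10000 UMIs. The other cells were split by the casein share (Csn1s1, Csn1s2a, Csn2 and Csn3), with casein-high from 0.5% of UMIs, and by Mki67, Top2a, Cdk1 and Ccnb1, with cycling from 5 UMIs per 10000. WT held 2719 hormone-sensing, 3746 casein-high non-cycling and 567 casein-low non-cycling cells. Its cycling states held 2 casein-high and 2 casein-low cells, too few for a comparison. C3-TAg held 2024 hormone-sensing, 1904 casein-high non-cycling, 1788 casein-low non-cycling, 586 casein-high cycling and 1600 casein-low cycling cells. Within 1 UMI per 10000 of the hormone-sensing limit were 46 WT and 261 C3-TAg cells, and within the same distance of the cycling limit 1 and 529 of the other cells. No member is among the genes that define the states. Non-cycling means below the cycling limit only, and such cells of C3-TAg still held many transcripts of DNA replication, as given below.

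The WT matrix held 8993 barcodes with 91133082 UMIs and the C3-TAg matrix 9575 barcodes with 91932121 UMIs. After filtering, 7036 and 7902 cells were kept, with 17 cell barcodes in common. In casein-high non-cycling cells a WT cell had a median of 11797 UMIs, against 9725 in C3-TAg. Luminal keratins and Epcam were high in all states, with a summed level of the 4 luminal markers between 8411 and 25240.2 CPM (UMIs per 1000000 UMIs of the summed cells) in the states with at least 50 cells. The 13 markers of endothelial, immune and stromal cells summed to between 2.47 and 8.35 CPM there. The 8 basal markers were higher in C3-TAg, at 464 against 55.8 CPM in casein-high non-cycling and 346 against 25.5 CPM in hormone-sensing cells. In WT they were highest in the casein-low cells, at 367 CPM, where Krt5 stood at 46.2 CPM. The part of these basal transcripts in the values below was not tested.

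Promoters of the members were also searched for short sequence words. RefSeq promoter sequences on GRCm38.p6 matched 25 of the 32 genes, and the 250 bases upstream of the start site were searched on both strands. An E2F word (TTTCCCGC, TTTCGCGC, TTTGGCGC or TTTGCCGC) was found in 5 of the 25, or 20%, against 517 of all 27025 promoters in the table, or 1.91%. The cell-cycle homology word (TTTGAA or TTCGAA) was in 8.0% of the member promoters and in 17.4% of all, and CCAAT in 56.0% against 34.5%. None of these words contains another. A match describes letters in the window and is not a measured binding site. Whether a word goes with the level or the ratio of a gene was not tested. The 5 stretches with the E2F word are given 5′ to 3′ on the strand of the gene, with the word or its reverse complement in capitals.
Brca2, chr5:150522433-150522480, plus strand: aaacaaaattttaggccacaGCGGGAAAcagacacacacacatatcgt
Bard1, chr1:71103154-71103201, minus strand: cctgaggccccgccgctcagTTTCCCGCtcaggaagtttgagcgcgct
Chek2, chr5:110839811-110839858, plus strand: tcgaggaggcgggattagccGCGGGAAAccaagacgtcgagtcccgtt
Topbp1, chr9:103305178-103305214, plus strand: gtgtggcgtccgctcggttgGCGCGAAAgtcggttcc
Mdc1, chr17:35841462-35841497, plus strand: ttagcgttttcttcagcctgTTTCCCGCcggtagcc
The word began 168 bases upstream of the RefSeq start in Brca2, 209 in Bard1, 152 in Chek2, 129 in Topbp1 and 16 in Mdc1. Brca2 and Chek2 carry the same 8 letters, and Bard1 and Mdc1 carry their reverse complement.

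In casein-high non-cycling cells, 31 of 32 members reached 1.5-fold or more in C3-TAg over WT and none was 1.5-fold lower. Of all 12660 genes with at least 20 UMIs in this comparison, 27.1% were higher and 10.8% lower by the same rule. Among the 31 members, 6 had fewer than 10 UMIs in WT and met this minimum through their C3-TAg counts. Brca1, Rad54l, Fancb, Blm and Xrcc3, with 10 to 16 UMIs in WT, also met it only through C3-TAg. Over the members the median log2 ratio was 2.98, over all genes 0.28. Scaling by the trimmed mean of M values (TMM) lowers each log2 ratio of this comparison by 0.29. By role, the pair for resection and unwinding was furthest apart between the libraries, with a median log2 ratio of 6.23. This value rests on 20 UMIs in WT. The 9 genes for strand exchange followed with 4.48, and the 6 for break sensing and chromatin were closest, with 1.16. Trp53bp1 was the member within 1.5-fold. Without the split by casein and cycling, over all cells that were not hormone-sensing, again 31 members were higher and none lower. This compares with 43.0% and 10.0% of all genes, and 4 of the 31 had fewer than 10 UMIs in WT. Brca1, Bard1, Fancb, Blm, Exo1 and Xrcc3 had 11 to 17 there. All of these met the minimum only through C3-TAg. The median log2 ratio of the members was then 3.50, and that of all genes 0.47.

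**Figure D1:**
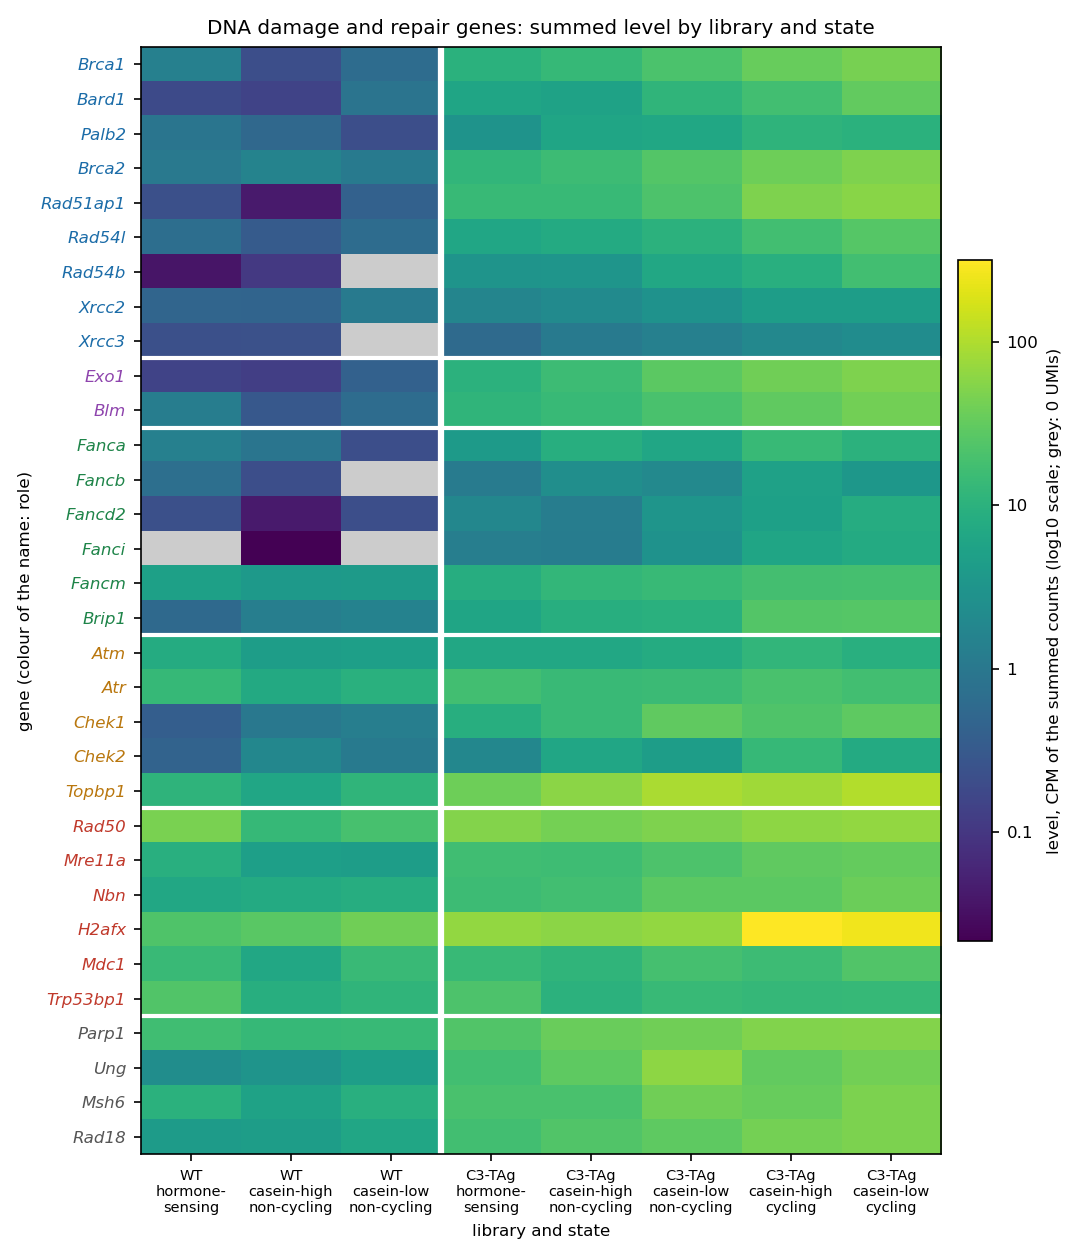
Level of each of the 32 genes (rows, grouped by role) in the 3 WT and 5 C3-TAg states with at least 50 cells (columns), as CPM of the summed counts on a log10 colour scale, with grey for 0 UMIs. The C3-TAg columns are brighter for nearly all genes, and Trp53bp1, Mdc1, Atm and Rad50 differ little between the hormone-sensing columns.

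Among the strand exchange genes, Brca1 (chr11:101488764-101551955), whose product directs breaks to recombination, stood at 1.42, 0.214 and 0.642 CPM in WT hormone-sensing, casein-high and casein-low non-cycling cells. In C3-TAg the same states had 9.95, 13.3 and 20.6 CPM, and the cycling casein-high and casein-low cells 34.0 and 44.6 CPM. Each of these C3-TAg levels was above the 3 WT levels. The share of all genes with such a separation was not computed. The hormone-sensing level of C3-TAg came down to 1.57 CPM in cells with a receptor UMI and below the cycling limit, against 1.33 CPM in WT, within 1.5-fold. In casein-high non-cycling cells the difference was 62.3-fold (interval 33.4 to 131), from 10 UMIs in WT and 275 in C3-TAg. Its partner in a ubiquitin ligase, Bard1, went from 0.150 to 5.38 CPM in the same cells, 35.9-fold (16.9 to 91.5). Palb2, which links BRCA1 to BRCA2, went from 0.556 to 6.10 CPM, 11.0-fold (7.16 to 17.5).

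Brca2 (chr5:150522630-150570329), which mediates strand exchange, was at 1.05, 1.56 and 1.07 CPM in WT hormone-sensing, casein-high and casein-low non-cycling cells. The C3-TAg cells of these states had 11.7, 15.3 and 24.5 CPM, and its cycling casein-high and casein-low cells 38.0 and 48.8 CPM. The casein-high non-cycling difference was 9.78-fold (7.56 to 12.8). In hormone-sensing cells with a receptor UMI and below the cycling limit, Brca2 was at 1.26 CPM in C3-TAg and 1.06 CPM in WT, within 1.5-fold. Another annotated gene overlaps Brca2 on the same strand, as is also the case for Bard1, Rad54b, Exo1, Atr and Parp1. Whether such overlaps affect the counts was not tested.

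Rad51ap1 (chr6:126923050-126939587) encodes a protein that stimulates strand exchange and had the highest ratio of all members in casein-high non-cycling cells. Its levels in WT were 0.225 CPM in hormone-sensing, 0.0427 in casein-high and 0.428 in casein-low non-cycling cells. C3-TAg had 14.0, 13.7 and 21.4 CPM there, and 50.2 and 58.5 CPM in casein-high and casein-low cycling cells. From 2 WT and 283 C3-TAg UMIs, the casein-high ratio of 321 had an interval of 88.0 to 2662. The direction between the libraries was thus clear while the size of the ratio was not.

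The DNA translocases Rad54l and Rad54b and the recombination genes Xrcc2 and Xrcc3 completed the group. Rad54l went from 0.342 CPM in WT to 7.65 CPM in C3-TAg casein-high non-cycling cells, 22.4-fold (13.4 to 40.1). Rad54b (chr4:11558922-11615805) was at 0.0375, 0.107 and 0 CPM in WT hormone-sensing, casein-high and casein-low non-cycling cells. It had 3.12, 3.20 and 6.75 CPM in the same states of C3-TAg, and 9.06 and 17.5 CPM in casein-high and casein-low cycling cells. With the WT count set to a floor of 3, the casein-low non-cycling ratio of Rad54b was 10.5. The exact interval of this ratio began at 8.38 and had no upper end. Xrcc2 (0.470 against 2.13 CPM) and Xrcc3 (0.235 against 1.07 CPM) both had a 4.53-fold difference in casein-high non-cycling cells, with intervals of 2.66 to 7.94 and 2.11 to 10.4. Xrcc2 and Xrcc3 had the smallest ratios of the group.

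Exo1 and Blm act on DNA ends and unwinding. Exo1 (chr1:175880581-175913489), a 5′ exonuclease that lengthens the resected tract, was at 0.150, 0.128 and 0.428 CPM in WT hormone-sensing, casein-high and casein-low non-cycling cells. In C3-TAg it was at 10.4, 15.7 and 27.9 CPM in these states and at 40.0 and 50 CPM in the casein-high and casein-low cycling cells. Blm (chr7:80454733-80535119), a RecQ helicase, was at 1.24, 0.299 and 0.642 CPM in the WT states and at 11.5, 13.7 and 20 CPM in the C3-TAg ones, in the same order. The cycling cells had 30.5 CPM of Blm in the casein-high and 40.6 CPM in the casein-low state. The ratios in casein-high non-cycling cells were 122 (55.6 to 336) for Exo1 and 45.8 (26.9 to 84.9) for Blm.

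All 6 Fanconi anaemia members were higher in C3-TAg casein-high non-cycling cells. Fancd2 and Fanci form the pair that is monoubiquitinated at crosslinks. Fanci (chr7:79391929-79450264) had no UMI in WT hormone-sensing or casein-low non-cycling cells and 1 UMI, or 0.0214 CPM, in the casein-high ones. In C3-TAg it was at 1.30, 1.21 and 2.91 CPM in hormone-sensing, casein-high and casein-low non-cycling cells, and at 6.17 and 7.66 CPM in casein-high and casein-low cycling cells. Its ratio over all cells that were not hormone-sensing was the highest of the members there, 215 with an interval of 38.2 to 8521. Fancd2 went from 0.0427 to 1.26 CPM in casein-high non-cycling cells, 29.5-fold (7.38 to 256).

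Fanca and Fancb belong to the core complex that adds the ubiquitin. They went from 0.897 to 8.72 CPM and from 0.214 to 2.47 CPM in casein-high non-cycling cells, 9.72-fold (6.91 to 13.9) and 11.6-fold (5.80 to 25.5). The helicase gene Brip1, whose product binds BRCA1, went from 1.30 to 8.67 CPM, 6.65-fold (4.95 to 9.05). Fancm, which encodes a translocase that anchors the complex, was already at 3.91 CPM in WT and reached 12.3 CPM, 3.13-fold (2.58 to 3.81). Fancm thus had the smallest ratio of these 6.

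Among the checkpoint genes, the apical kinases differed less than the genes next to them. Atm (chr9:53439149-53536740) was at 7.80, 4.55 and 4.92 CPM in WT hormone-sensing, casein-high and casein-low non-cycling cells and at 6.77, 6.88 and 7.89 CPM in C3-TAg. The cycling cells had 11.8 CPM of Atm in the casein-high and 9.04 CPM in the casein-low state. Its casein-high non-cycling ratio was 1.51 (1.21 to 1.88), at the limit of 1.5, and under TMM scaling it was below that limit. Atr went from 7.33 to 14.3 CPM in these cells, 1.96-fold (1.67 to 2.29). Chek1, the kinase that ATR activates, went from 1.0 to 14.6 CPM, 14.5-fold (10.6 to 20.2).

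Chek2 (chr5:110839979-110874145), the kinase that ATM activates, was at 0.450, 1.79 and 1.07 CPM in WT hormone-sensing, casein-high and casein-low non-cycling cells. C3-TAg had 1.83, 6.2 and 4.48 CPM there, and 13.3 and 7.60 CPM in casein-high and casein-low cycling cells. Among the non-cycling states of each library, and between the cycling ones, the casein-high state had most. Topbp1 (chr9:103305215-103350428) encodes an activator of ATR that is also needed to start replication. It stood at 10.9, 6.24 and 11.6 CPM in WT hormone-sensing, casein-high and casein-low non-cycling cells. The C3-TAg levels were 37.4, 60.7 and 93.9 CPM in those states and 80.3 and 103 CPM in the casein-high and casein-low cycling cells. In casein-high non-cycling cells the ratio was 9.73 (8.56 to 11.1) for Topbp1 and 3.45 (2.60 to 4.61) for Chek2. Topbp1 was within 1.5-fold in hormone-sensing cells with a receptor UMI and below the cycling limit.

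The MRE11-RAD50-NBN complex binds broken ends, and its 3 genes differed between the libraries by 2.27-fold to 3.33-fold in casein-high non-cycling cells. Rad50 (chr11:53649519-53707319) was at 45.4, 13.5 and 19.3 CPM in WT hormone-sensing, casein-high and casein-low non-cycling cells, and at 53.0, 42.1 and 49.5 CPM in C3-TAg. The cycling cells had 61.0 CPM in the casein-high and 66.6 CPM in the casein-low state. The WT hormone-sensing level thus lay within the range of the C3-TAg non-cycling states. Its ratio was 3.11 (2.81 to 3.45) in casein-high non-cycling and 1.17 (1.07 to 1.27) in hormone-sensing cells.

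Mre11a (chr9:14784654-14837123) stood at 9.07, 4.83 and 4.50 CPM in WT hormone-sensing, casein-high and casein-low non-cycling cells. C3-TAg had 16.5, 16.1 and 21.7 CPM in the same states and 30.6 and 32.7 CPM in cycling casein-high and casein-low cells. Nbn (chr4:15957925-15992589) was at 6.67, 7.50 and 8.35 CPM in the WT states and at 15.2, 17.1 and 28.6 CPM in the C3-TAg ones, with 27.9 and 36.6 CPM in the cycling states. These C3-TAg levels of both genes lay above the WT ones, a separation whose share over all genes was not computed. In hormone-sensing cells with a receptor UMI and below the cycling limit the ratios were 1.26 (1.02 to 1.55) for Mre11a and 1.31 (1.02 to 1.67) for Nbn, within 1.5-fold. The casein-high non-cycling ratios were 3.33 (2.80 to 3.96) for Mre11a and 2.27 (1.96 to 2.64) for Nbn.

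H2afx (chr9:44334694-44336077), the gene of the histone variant that is phosphorylated around breaks, was at 22.6, 27.4 and 39.2 CPM in WT hormone-sensing, casein-high and casein-low non-cycling cells. In C3-TAg these states had 66.9, 59.8 and 65.6 CPM, and the casein-high and casein-low cycling cells 317 and 259 CPM. The step from non-cycling to cycling cells thus exceeded the 2.18-fold difference between the libraries in casein-high non-cycling cells (2.02 to 2.36). In hormone-sensing cells with a receptor UMI and below the cycling limit, H2afx was within 1.5-fold between the libraries. RNA levels do not report the phosphorylated protein.

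Mdc1 (chr17:35841515-35859670), which encodes the adaptor that binds phosphorylated H2AX, was at 14.5, 6.71 and 14.3 CPM in WT hormone-sensing, casein-high and casein-low non-cycling cells. C3-TAg had 13.9, 11.4 and 18.7 CPM there, and 15.4 and 23.7 CPM in the casein-high and casein-low cycling cells. Trp53bp1 (chr2:121193281-121271407), whose product restrains resection and favours end joining, was at 23.2, 8.85 and 11.6 CPM in the WT states and at 22.0, 10.2 and 13.9 CPM in the C3-TAg ones. Its cycling levels were 12.8 and 13.5 CPM. For Mdc1 the casein-high ratio was 1.70 (1.43 to 2.02), and for Trp53bp1 it was 1.15 with an interval of 0.969 to 1.36 that included 1. The levels of both genes overlapped between the libraries.

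Parp1 (chr1:180568924-180601254), whose product marks strand breaks with poly(ADP-ribose), was at 16.5, 13.4 and 13.9 CPM in WT hormone-sensing, casein-high and casein-low non-cycling cells. C3-TAg levels were 23.3, 34.7 and 40.2 CPM in these states and 50.5 and 52.5 CPM in cycling casein-high and casein-low cells. Msh6 (chr17:87975062-87990892), which recognises mispaired bases, was at 9.86, 5.41 and 8.99 CPM in the WT states and at 20.2, 20.4 and 39.4 CPM in the C3-TAg ones. Its cycling casein-high and casein-low cells had 34.0 and 47.0 CPM. In casein-high non-cycling cells C3-TAg was higher by 2.60-fold (2.33 to 2.90) for Parp1 and 3.77-fold (3.22 to 4.43) for Msh6. In hormone-sensing cells with a receptor UMI and below the cycling limit the ratios were 1.02 (0.858 to 1.20) and 1.10 (0.890 to 1.36), both with an interval that included 1.

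Rad18 (chr6:112619850-112696686), the ligase that ubiquitinates PCNA at stalled forks, was at 4.20, 4.42 and 6.21 CPM in WT hormone-sensing, casein-high and casein-low non-cycling cells. The C3-TAg levels were 17.0, 23.8 and 29.7 CPM there and 42.0 and 48.0 CPM in the casein-high and casein-low cycling cells. Ung (chr5:114130386-114139323), the uracil-DNA glycosylase, was at 2.36, 3.08 and 4.71 CPM in the WT states and at 17.5, 29.0 and 62.0 CPM in the C3-TAg ones. Its casein-high and casein-low cycling cells had 31.1 and 41.5 CPM, so among these states Ung was highest in the casein-low non-cycling cells of C3-TAg. The cycling cells picked below for a high S phase share had more. The casein-high non-cycling ratios were 5.39 (4.57 to 6.37) for Rad18 and 9.41 (7.84 to 11.4) for Ung.

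The C3-TAg cells below the cycling limit still held many transcripts of DNA replication. A list of 15 S phase genes, such as Mcm3 of the replicative helicase, summed to 149.9 CPM in WT casein-high non-cycling cells and to 1119.9 CPM in those of C3-TAg. In casein-low non-cycling cells the sums were 203 and 1888 CPM. The cycling cells of C3-TAg had 1873 CPM in the casein-high and 2310.3 CPM in the casein-low state. The casein-low non-cycling cells of C3-TAg were thus about as rich in these transcripts as its casein-high cycling cells. The comparison was therefore repeated in cells with no UMI of Mki67, Top2a, Cdk1 or Ccnb1 and with fewer than 5 S phase UMIs per 10000. This left 348 C3-TAg and 3510 WT casein-high cells, with S phase sums of 195 and 137 CPM and sums of 12 G2M genes of 73.8 and 8.28 CPM. The 8 basal markers summed to 251 CPM in these C3-TAg cells and 56.5 CPM in these WT cells, and their part in the values was not tested. The 32 members summed to 205 CPM in these C3-TAg cells and 125 CPM in these WT cells, against 499 and 126 CPM before the restriction.

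In the restricted casein-high cells 23 members had the 20 UMIs needed, of which 17 reached 1.5-fold in favour of C3-TAg and none was lower. Among all genes 16.7% were higher and 12.3% lower. The median log2 ratio of the 23 was 0.75, that of all genes 0.11, and TMM scaling lowers each ratio by 0.15. Topbp1 was at 17.8 CPM in C3-TAg and 5.75 CPM in WT, 3.1-fold (2.33 to 4.09), and Chek2 at 6.59 and 1.66 CPM, 3.96-fold (2.39 to 6.35). Blm had the highest ratio, 9.85 (3.61 to 26.1), from 9 and 11 UMIs. The intervals of these 3 genes lay above 1.5.

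H2afx was at 27.2 CPM in both libraries in the restricted casein-high cells, a ratio of 0.999 (0.805 to 1.23). Mdc1 (6.86 against 6.70 CPM), Atm (4.94 against 4.33 CPM), Trp53bp1 (10.7 against 8.98 CPM), Fancm (5.21 against 3.88 CPM) and Brca2 (2.20 against 1.62 CPM) were also within 1.5-fold, each with an interval that included 1. Rad50 was at 22.2 and 13.2 CPM, 1.69-fold (1.32 to 2.13), and Rad18 at 10.7 and 4.40 CPM, 2.43-fold (1.68 to 3.45). Brca1, Rad51ap1 and Exo1 were among the 9 genes with too few UMIs there.

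**Figure D2:**
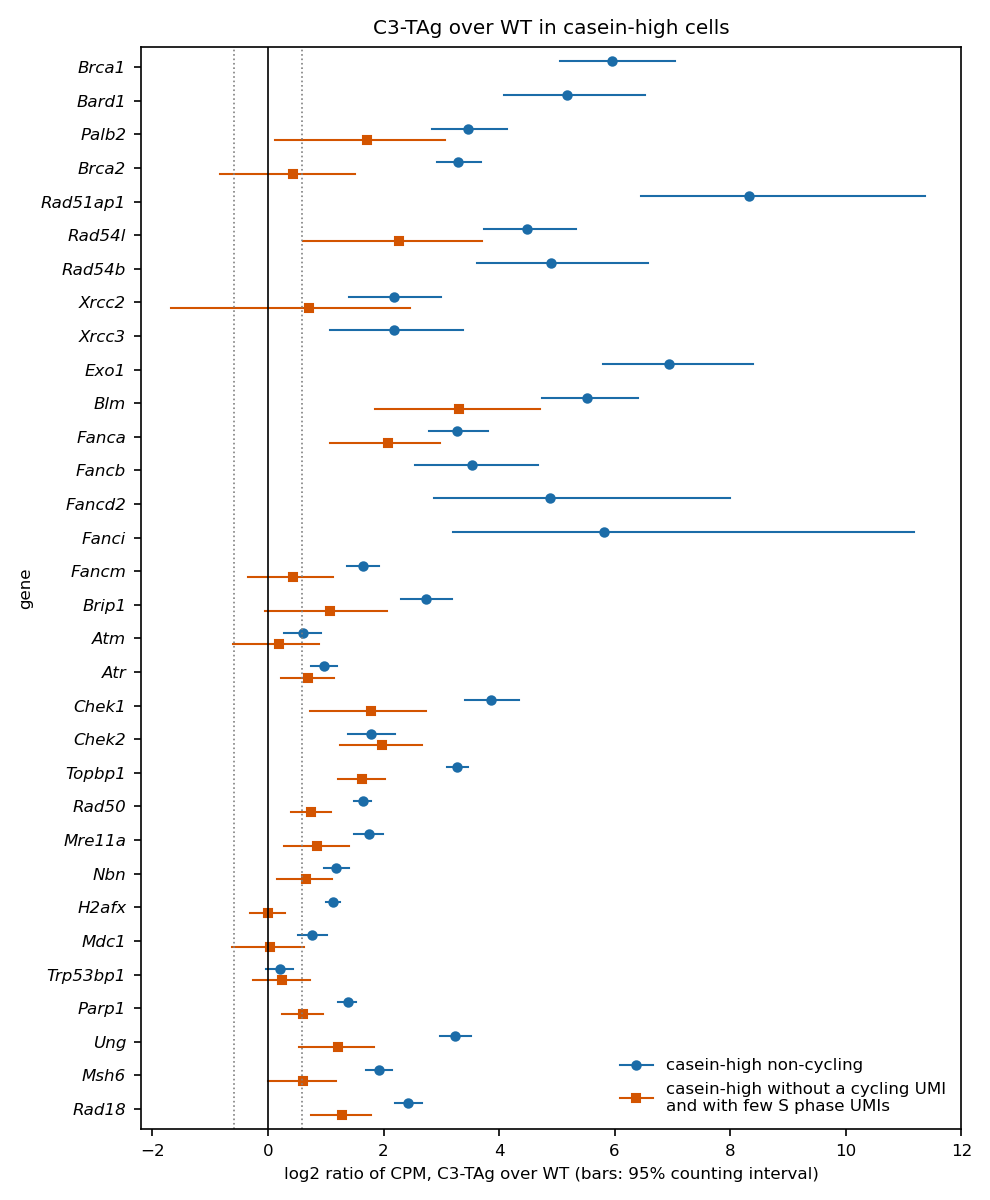
Log2 ratio of CPM, C3-TAg over WT, for each of the 32 genes in casein-high non-cycling cells (circles) and in the restricted casein-high cells (squares), with 95% counting intervals and dotted lines at 1.5-fold. Squares are drawn for the 23 genes with at least 20 UMIs, and most lie to the left of the circles, with H2afx moving to 0 and Chek2 keeping its place.

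In casein-low non-cycling cells 30 members reached a ratio of 1.5 in favour of C3-TAg and none was lower, against 32.4% and 13.0% of all genes. Their median log2 ratio was 2.26 against 0.30 for all genes, and TMM scaling lowers each by 0.22. Exo1 had the highest ratio, 65.2 (17.9 to 541), from 2 UMIs in WT and 393 in C3-TAg. Trp53bp1 at 1.20 (0.887 to 1.66) and Mdc1 at 1.30 (0.993 to 1.73) were within 1.5-fold. In the 567 WT cells 18 members had fewer than 10 UMIs and 4 had none, so many of these ratios are loosely set.

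The restricted casein-low cells, 143 in C3-TAg and 506 in WT, gave 14 measured members, 7 of them higher and none lower, against 20.7% and 11.8% of all genes. The members' median log2 ratio was 0.74 and that of all genes 0.15, with a TMM shift of 0.24. Mre11a was highest at 13.0 against 3.56 CPM, 3.67-fold (1.57 to 8.39), and Topbp1 followed at 29.3 against 10.7 CPM, 2.75-fold (1.64 to 4.53). Mdc1 was lowest at 12 against 13.0 CPM, a ratio of 0.917 (0.433 to 1.77). H2afx, at 42.4 against 38.4 CPM, had a ratio of 1.10 (0.757 to 1.57). The basal markers summed to 602 CPM in these C3-TAg cells and 303 CPM in these WT cells. Areg, Pgr, Esr1, Cited1 and Prlr together summed to 970.1 and 361 CPM, against 184 and 357 CPM before the restriction. The C3-TAg side thus held more hormone-sensing transcripts after the restriction, and their part in the values was not tested.

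In hormone-sensing cells 31 members were measured, with 25 at least 1.5-fold higher in C3-TAg and none lower. Fewer than 10 UMIs in WT lay behind 6 of the 25. Rad54l, Fancb, Brip1, Chek1, Chek2 and Xrcc2 had 10 to 19 there. All of these met the minimum of 20 UMIs only through C3-TAg. Of all genes 22.9% were higher and 9.06% lower. The members' median log2 ratio was 1.81 and that of all genes 0.15, with a TMM shift of 0.18. Rad54b had the highest ratio, 83.2 (14.3 to 3348), from 1 UMI in WT. Chek1 went from 0.375 to 8.95 CPM, 23.9-fold (12.6 to 50.8), and Bard1 from 0.187 to 6.12 CPM, 32.7-fold (13.6 to 103). Atm, Trp53bp1, Mdc1, Rad50, Atr and Parp1 were within 1.5-fold, with ratios from 0.868 (0.685 to 1.10) for Atm to 1.41 (1.23 to 1.62) for Parp1.

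The hormone-sensing state of C3-TAg was mixed. Of its 2024 cells, 239 reached the cycling limit, against 1 of 2719 in WT, and 402 had no UMI of Pgr, Esr1 or Cited1 and met the rule through Areg, against 31 in WT. Those 402 cells had S phase, G2M and basal sums of 2346, 679 and 1278 CPM. The comparison was therefore repeated, in a step added after seeing the data, in cells with a UMI of Pgr, Esr1 or Cited1 and below the cycling limit, 1584 in C3-TAg and 2687 in WT. In these the S phase sums were 247 and 166 CPM, the G2M sums 41.3 and 10.5 CPM and the basal sums 56.4 and 25.3 CPM.

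Of 26 measured members in these receptor-positive cells, 10 reached 1.5-fold in favour of C3-TAg and none was lower, against 12.8% and 9.50% of all genes. Fewer than 10 UMIs in WT lay behind 2 of the 10. On the log2 scale the median ratio was 0.41 for the members and 0.07 for all genes. Rad51ap1 was highest at 1.26 against 0.152 CPM, 8.31-fold (2.68 to 34.1). Blm, at 3.78 against 1.10 CPM, had a ratio of 3.44 (2.12 to 5.65), and Ung, at 5.19 against 2.27 CPM, one of 2.28 (1.59 to 3.30). Rad18 was at 7.87 and 4.02 CPM, 1.96-fold (1.48 to 2.60), and Chek1 at 1.5 and 0.341 CPM, 4.38-fold (1.89 to 11.0).

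Brca1 and Brca2, which had high ratios in the whole hormone-sensing state, were within 1.5-fold in the receptor-positive cells. Brca1 was at 1.57 CPM in C3-TAg and 1.33 CPM in WT, a ratio of 1.19 (0.649 to 2.11), and Brca2 at 1.26 and 1.06 CPM, likewise 1.19 (0.60 to 2.27). Rad50, Parp1, Mdc1 and Atm had been within 1.5-fold in the whole state already. Rad50, at 49.9 and 45.7 CPM, had a ratio of 1.09 (0.990 to 1.20), and Parp1, at 16.6 and 16.3 CPM, one of 1.02 (0.858 to 1.20). Mdc1 was at 11.4 and 14.5 CPM, a ratio of 0.788 (0.646 to 0.957), and Atm, the lowest, at 5.98 and 7.77 CPM, 0.770 (0.584 to 1.01). In the 402 cells without a receptor UMI, Brca1 stood at 30.4 CPM, Brca2 at 44.0 CPM and H2afx at 169 CPM. Trp53bp1 went the other way, at 11.2 CPM in those cells and 24.9 CPM in the receptor-positive C3-TAg cells.

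**Figure D3:**
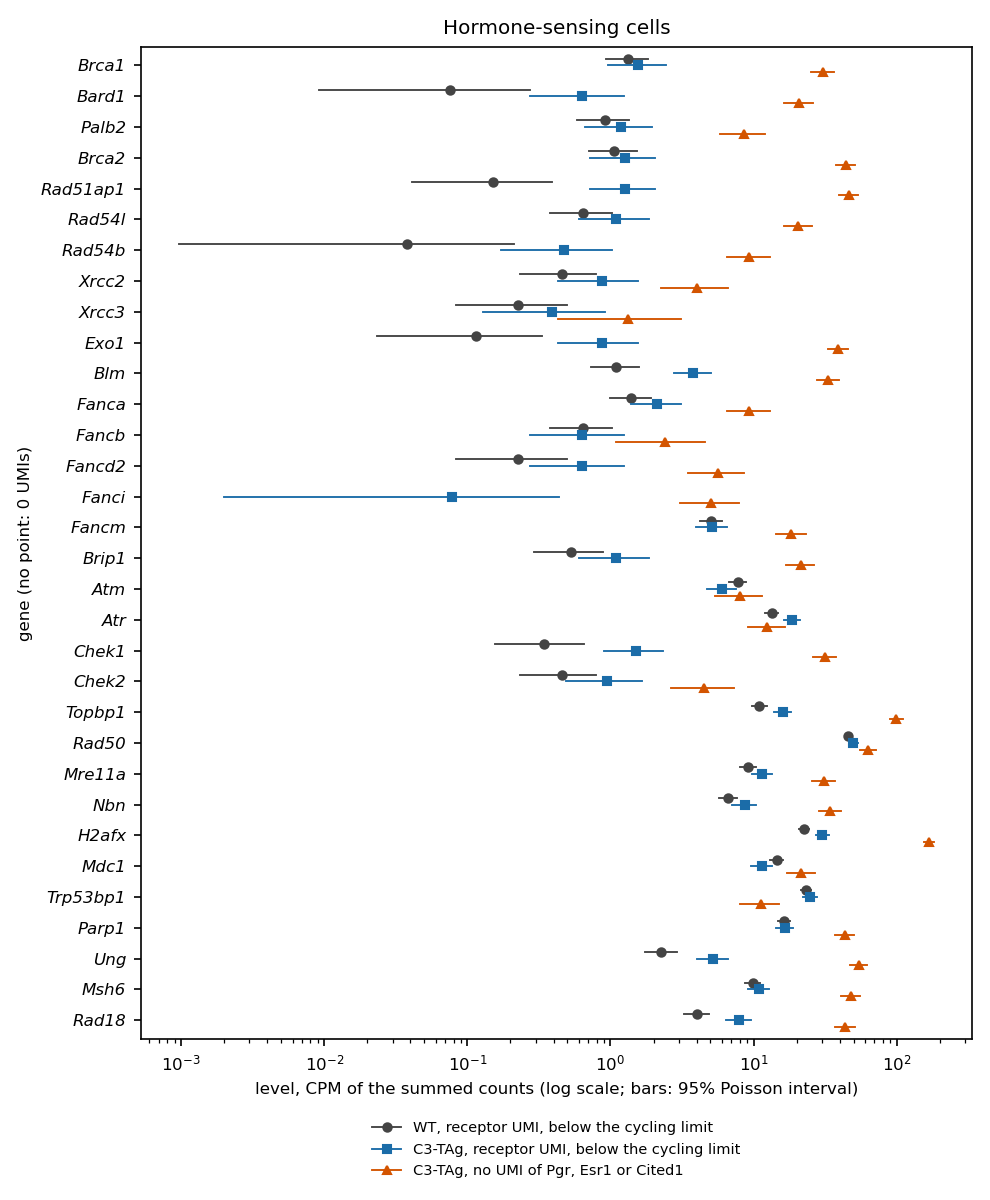
Level of each of the 32 genes (CPM of the summed counts, log axis, 95% Poisson intervals) in receptor-positive cells below the cycling limit of WT (circles) and C3-TAg (squares), and in the 402 C3-TAg cells that met the hormone-sensing rule without a receptor UMI (triangles). Circles and squares lie near each other for Brca1, Brca2, Rad50, Parp1 and Trp53bp1, and the triangles lie far to the right of both for Brca1, Brca2 and H2afx but not for Atm, Atr and Trp53bp1.

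Within WT, the states themselves differed. Of 25 measured members, 14 were at least 1.5-fold higher in hormone-sensing than in the other non-cycling cells and 3 were lower, against 37.6% and 21.0% of all genes. The median log2 ratio was 0.73 for members and 0.29 for all genes. With TMM scaling, a shift of 0.31, the counts became 7 of 25 higher and 6 lower. By that scaling 27.2% of all genes were higher, so the higher count of members was near the share over all genes. The share of all genes lower was not computed there. Brca1 had the highest ratio, 1.42 against 0.253 CPM or 5.64-fold (2.94 to 11.5). Rad50 was at 45.4 and 14.0 CPM, 3.24-fold (2.95 to 3.55), and Trp53bp1 at 23.2 and 9.09 CPM, 2.56-fold (2.26 to 2.89). The lower genes were Chek2, at 0.450 against 1.73 CPM, Chek1, at 0.375 against 1.03 CPM, and Brip1, at 0.562 against 1.32 CPM. Chek2 was 3.84-fold lower and its interval of the ratio, 0.130 to 0.478, excluded 1.

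Within C3-TAg, 24 of 32 members were at least 1.5-fold higher in cycling than in non-cycling casein-high cells and none lower, against 12.7% and 3.67% of all genes. In casein-low cells 20 were higher and none lower, against 11.1% and 5.17%. The members' median log2 ratios were 0.89 and 0.68, those of all genes 0.13 and 0.10, and the TMM shifts 0.15 and 0.08. All 9 strand exchange genes were higher in both casein classes. For Xrcc3 the casein-high and casein-low intervals, 0.855 to 3.57 and 0.916 to 2.88, included 1. H2afx was highest in both, with 5.30-fold (4.94 to 5.67) in casein-high and 3.94-fold (3.68 to 4.24) in casein-low cells, and Fanci followed in casein-high cells with 5.09-fold (3.09 to 8.60).

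Topbp1, Ung, Trp53bp1, Atr, Mdc1, Rad50, Parp1 and Fancm were within 1.5-fold between cycling and non-cycling cells of both casein classes. Ung was lowest, at 1.07 (0.922 to 1.25) in casein-high and 0.670 (0.606 to 0.739) in casein-low cells. Chek1 was 1.55-fold higher (1.28 to 1.87) in cycling casein-high cells, whereas its casein-low ratio was 0.957 (0.841 to 1.09). The cycling rule is built on transcripts that peak late in the cycle, and the S phase list had medians of 0.54 and 0.20 on the log2 scale in these comparisons, against 2.13 and 2.55 for the G2M list.

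Between the casein classes of cycling C3-TAg cells the members differed little. In casein-low cells 4 members were at least 1.5-fold higher (Rad54b, Bard1, Fancd2 and Mdc1) and 2 lower (Chek2 and Fancb), against 25.1% and 9.16% of all genes. The median log2 ratio was 0.24 for the members, 0.22 for all genes, and the TMM shift 0.19. Rad54b was highest, 17.5 against 9.06 CPM or 1.93-fold (1.49 to 2.53). Chek2, at 7.60 against 13.3 CPM, was lowest, 1.76-fold lower, with an interval of the ratio of 0.439 to 0.741.

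To place the members within the cycle, cycling C3-TAg cells with a high S phase and low G2M share were set against those with the reverse, 766 cells each. In the S-high cells 15 members were at least 1.5-fold higher and none lower, against 7.44% and 6.32% of all genes. The median log2 ratio was 0.50 for the members and -0.01 for all genes. Ung stood apart, at 80.6 CPM in S-high and 12.6 CPM in G2M-high cells, 6.38-fold (5.26 to 7.79). Msh6 had 62.1 and 24.5 CPM, 2.53-fold (2.17 to 2.96), Brca1 61.9 and 24.9 CPM, 2.48-fold (2.13 to 2.90), and Exo1 64.6 and 31.5 CPM, 2.05-fold (1.78 to 2.37).

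The break sensing and chromatin genes did not share this S phase bias, with 0 of 6 at least 1.5-fold higher or lower. H2afx was the lowest member, at 204 CPM in S-high and 288 CPM in G2M-high cells, a ratio of 0.708 (0.666 to 0.752). Rad50 had 62.8 and 63.0 CPM, a ratio of 0.996 (0.885 to 1.12), and Trp53bp1 14.7 and 13.8 CPM, 1.06 (0.828 to 1.37). Topbp1, at 119 and 70.2 CPM, was 1.69-fold higher (1.53 to 1.86) in S-high cells, and Rad18, at 45.1 and 44.0 CPM, had a ratio of 1.02 (0.890 to 1.18). S-high cells were shallower, with a median of 9768 UMIs against 12104.

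**Figure D4:**
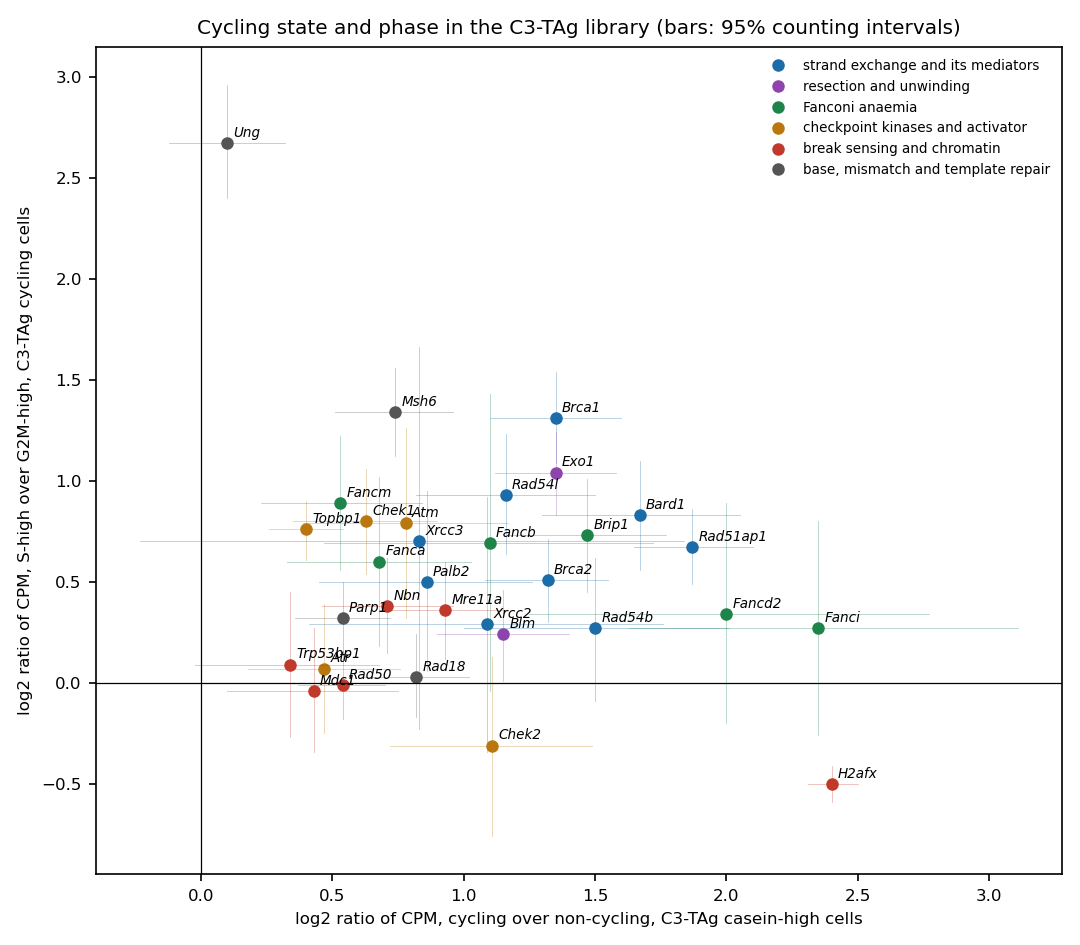
Log2 ratio of CPM for each of the 32 genes in cycling over non-cycling C3-TAg casein-high cells (x axis) and in S-high over G2M-high C3-TAg cycling cells (y axis), coloured by role, with 95% counting intervals. Ung lies alone at the top left, H2afx at the bottom right, and the strand exchange genes at positive values on both axes.

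Other repair genes were counted by pathway in casein-high non-cycling cells, C3-TAg over WT, where 27.1% of all genes were higher. Other homologous recombination genes were higher for 22 of 27 and lower for none, with Polq (2.08 against 0.0214 CPM), the polymerase of microhomology-mediated joining, in front. The WT level of Polq came from 1 UMI, so the size of its ratio is loosely set. At the other end stood Psmc3ip (10.2 against 12.9 CPM), known for its part in meiotic recombination. Of the other Fanconi anaemia genes 6 of 11 were higher and 1 lower, from Ube2t (5.13 against 0.598 CPM), the conjugating enzyme of the pathway, to Fancc (2.08 against 4.06 CPM) of the core complex. Other mismatch repair genes were higher for 4 of 6, Pms1 (1.45 against 0.363 CPM) and Pms2 (12.9 against 3.70 CPM) among them.

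Of the base excision repair genes 11 of 20 were higher, with Neil3, a glycosylase, at 3.97 CPM in C3-TAg and no UMI in WT, followed by Mbd4 (10.6 against 0.491 CPM) and the replicative ligase Lig1 (103 against 5.85 CPM). Xrcc1 (19.1 against 18.8 CPM), the scaffold of single-strand break repair, and Aptx (9.11 against 10.1 CPM) were at the low end. Checkpoint and chromatin signalling genes were higher for 10 of 16, with Clspn (52.5 against 0.449 CPM), the adaptor through which ATR reaches CHK1, in front. End joining genes were higher for 6 of 10, from Prkdc (5.28 against 1.60 CPM), the DNA-dependent protein kinase, to Xrcc4 (8.91 against 8.05 CPM), and translesion synthesis genes for 6 of 8. Nucleotide excision repair had 2 of 14 higher, Ddb2 (12.4 against 5.77 CPM) and Xpc (8.96 against 4.19 CPM), which together recognise ultraviolet lesions.

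In the restricted casein-high cells other homologous recombination genes were higher for 10 of 22 and lower for 1, Psmc3ip (7.96 against 12.7 CPM). Nucleotide excision repair had 3 of 14 higher, base excision repair 6 of 17, and end joining 3 of 10 with 1 lower, beside the 16.7% of all genes. In receptor-positive hormone-sensing cells none of 14 nucleotide excision repair and none of 8 translesion synthesis genes was 1.5-fold higher, and 7 of 22 other homologous recombination genes were, beside 12.8% of all genes.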

How the data were processed

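Each library was deposited as a matrix of raw UMI counts, which were not normalized. The submitters' processing notes name Cell Ranger 3.1.0 and the build mm10. The sources used here do not say how the authors called barcodes. Barcodes with at least 500 genes, at least 1000 UMIs and at most 10% mitochondrial UMIs were kept. Scrublet calls in each library (360 in WT, or 4.86%, and 544 in C3-TAg, or 6.43%) and cells with at least 5 UMIs per 10000 of non-epithelial markers (10 and 12) were left out.

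Counts were summed per library and state and divided by the total, as CPM. Levels carry exact Poisson intervals and ratios exact conditional Poisson intervals, at 95%, which cover counting error only. UMIs are 3′ tags, so levels were compared within a gene. A gene needed 20 UMIs in the pair of states compared, and it was called higher or lower from 1.5-fold. A gene with 0 UMIs was set to 3 counts in its library, so the size of its ratio depends on that floor. States with fewer than 50 cells were not compared. The ratio step was tested on simulated counts. S-high cells lie above the median of the S phase list share and below that of the G2M list share, and G2M-high cells the reverse.

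Every member is named. The 12 members with the most UMIs, and the highest and lowest member of each comparison, have their level in each state. Of other lists, members at either end are named, and some that this rule picks are not reported here. The members and lists were chosen with earlier results of these data known. Alternatives covered scaling, depth, cell filters, doublets, the count minimum, the fold and the limits of the states. Scrublet was run through scanpy 1.11.5 and the intervals came from scipy 1.17.1, under Python 3.11.15 with pandas 2.3.3, numpy 2.4.6 and matplotlib 3.10.9. Gene positions are from the GENCODE annotation of GRCm38, and promoters from RefSeq on GRCm38.p6.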

Additional observations from a re-analysis of the deposited data

Results flagged for a closer look

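Barcodes outside the compared cells also carried the members at higher levels in C3-TAg than in the WT control. The 544 C3-TAg barcodes called as doublets had a summed level of 746 CPM over the 32 members (interval 730.2 to 762), against 173 CPM (164 to 182) in 360 WT barcodes. The 1117 C3-TAg barcodes below the cell filter had 636 CPM (606 to 667), against 179.9 CPM (168 to 192) in 1587 WT barcodes. The 12 C3-TAg cells left out for non-epithelial markers had 389 CPM (290.2 to 509.5), against 159 CPM (88.9 to 262) in 10 WT cells. These barcodes were left out of every value in the report and entered only recomputations that loosened the cell filters.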

How the results depend on the processing

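No paired analysis was possible because each group has 1 library. Over the 9 comparisons, the count of members at least 1.5-fold higher stayed within 1.5 times its reported value in 126 recomputations that could change it. In 22 further ones the setting left the compared cells as they were, which says nothing about stability. In 14 the count moved further, as follows, and the cause was not tested unless the setting itself leaves out genes or cells. In cells without a cycling UMI the count was 17 of 23 measured members in casein-high and 7 of 14 in casein-low cells. Of all genes 16.7% and 20.7% were higher there. In hormone-sensing cells the count was 15 after thinning to 2000 UMIs, where 22 members were measured, and 10 of 26 in receptor-positive cells. The shares over all genes were 19.5% and 12.8%. A limit of 2-fold gave 15 and 10 for cycling casein-high and casein-low cells, 4 for S-high cells, 0 between casein classes and 5 for WT hormone-sensing cells. In the same order, 4.77%, 4.36%, 2.59%, 12.6% and 24.5% of all genes were higher by 2-fold. The members measured were 25 in the last of these comparisons and 32 in the others. Between casein classes TMM scaling gave 2 higher and 3 lower, and a hormone-sensing limit of 3 gave 2 higher. Of all genes 17.8% and 24.6% were higher at these settings. For WT hormone-sensing cells TMM scaling gave 7 of 25 measured members, thinning 9 of 15 and a minimum of 100 UMIs 8 of 16. The shares of all genes higher were 27.2%, 35.8% and 36.2%. The direction of a single member turned 5 times among the recomputed ratios. Without a cycling UMI, H2afx, C3-TAg over WT, casein-high non-cycling had a log2 ratio of -0.0019, and Xrcc3, cycling over non-cycling, C3-TAg casein-low one of -0.52. In receptor-positive cells Fancb, C3-TAg over WT, hormone-sensing had -0.03. After thinning, Fancd2, casein-low over casein-high, C3-TAg cycling had -0.29, and with a cycling limit of 10, Fancb, S-high over G2M-high, C3-TAg cycling had -0.01. Depth limited the ratios over WT, whose casein-high non-cycling cells held 20 UMIs of the resection genes, 172 of the strand exchange genes and 299 of the Fanconi members.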
